A study of Mus musculus with 45 samples.

Results

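The comparison described here is the degradation of GABPA between the four-cell stage and the morula. It was measured by RNA sequencing in 2 DMSO and 2 dTAG13 libraries, which are 4 of the 45 libraries of the series and were taken by their labels alone. The embryos were mouse Gabpa-dTAG/dTAG embryos from in vitro fertilization. Both alleles of the endogenous Gabpa gene carried a degradation tag, in the DMSO controls as well, so no group here was wild type. The tag is a mutant FKBP domain that the small molecule dTAG13 links to a ubiquitin ligase, after which the fused protein is destroyed. Embryos were cultured in KSOM medium with 1 µM dTAG13 or DMSO from 42 hours post-fertilization (hpf), and pools of embryos were collected as morulae at an hour that is not given in the sources used here. None of the RNA libraries came from dTAG13-treated morulae without the tag, so in these RNA data an effect of the compound itself and an effect of GABPA loss cannot be told apart, and RNA does not measure how much of the protein was left.

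GABPA is the DNA-binding subunit of GA-binding protein and belongs to the ETS family of transcription factors. It binds GGAA-containing sites, mostly near the start sites of broadly used genes, and joins a GABPB subunit, encoded by Gabpb1 or Gabpb2, that carries the activation domain. Its known targets include genes of mitochondrial protein synthesis and respiration. Between the four-cell stage and the morula the embryo compacts, the products of the first wave of genome activation decline, and the outer and inner cells begin to differ in the genes they use.

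Each table held 55385 genes, of which 13667 had at least 10 counts in at least 2 of the 4 libraries and were tested. The libraries held between 9457889 and 12382653 expected counts, and the replicates of a group differed by more than counting noise, and each was counted as a separate library. All 12 morula markers were present in each library, with summed levels between 852 and 895 FPKM (fragments per kilobase of transcript, scaled to library depth). Of 12 markers of cumulus and granulosa cells, 9 were at 0 in all 4 libraries, as were 6 of 7 fibroblast markers. The 8 blood cell markers, 3 of them at 0 throughout, summed to 11.1 and 19.6 FPKM with DMSO and to 14.5 and 16.3 FPKM with dTAG13. These sums came mainly from Cd68 (7.35 and 13.5 against 5.43 and 12.3 FPKM) and Hba-a2 (2.97 and 5.89 against 7.66 and 2.72 FPKM). The 9 sperm and testis markers, 3 of them at 0 throughout, summed to 3.14 and 3.33 FPKM in the DMSO libraries but to 0.99 and 1.55 FPKM in the dTAG13 libraries, and the part of this difference in any result was not tested. Xist, the RNA of the inactive X chromosome, stood at 47.4 and 41.6 FPKM with DMSO against 23.9 and 34.6 with dTAG13 (log2 fold change -0.4, adjusted p = 0.377). Of the 5 Y-linked genes listed, all were above 0 and none passed. Eif2s3y was higher without overlap, at 15.5 and 12.7 FPKM with DMSO against 19.2 and 22.9 with dTAG13 (log2 fold change 0.72, adjusted p = 0.224), while Ddx3y overlapped, at 13.4 and 4.87 FPKM with DMSO against 9.9 and 9.89 with dTAG13. The sex of the pooled embryos is not given in the sources used here, and the part of these differences in any result was not tested.

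Gabpa mRNA itself did not pass the test in either direction. Its level was 8.79 and 10.2 FPKM in the DMSO libraries and 16.6 and 15.9 FPKM in the dTAG13 libraries (log2 fold change 0.74, SE 0.2, adjusted p = 0.152). Both dTAG13 libraries lay above both DMSO libraries. Gabpb1, the gene for a GABPB subunit, rose. It stood at 25 and 37.3 FPKM in the DMSO libraries and 72.6 and 70.6 FPKM in the dTAG13 libraries (log2 fold change 1.28, SE 0.23, adjusted p = 0.0239), again with both dTAG13 libraries above both DMSO libraries. The call was lost when DMSO replicate 1 was left out (adjusted p = 0.0671). Gabpb2, the gene for the alternative subunit, was at 3.78 and 3.58 FPKM with DMSO against 2.91 and 4.34 with dTAG13 (log2 fold change 0.14, adjusted p = 0.853), and its groups overlapped.

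Across all genes, few passed the test. A gene was called when its adjusted p was under 0.05, its fold change was at least 2 and its mean level was at least 1 FPKM in a group. By this rule 27 genes fell (0.198% of those tested) and 21 rose (0.154%). Over the 13667 genes the median log2 fold change was -0.02, with quartiles at -0.33 and 0.28. By the adjusted p alone there were 28 lower genes (0.205%) and 22 higher genes (0.161%), and the extra genes were Kmt2a, whose level was too low for a call, and Gm5612, whose fold was just under 2. At an unadjusted p under 0.05 there were 944 lower genes (6.91%) and 910 higher genes (6.66%). Both dTAG13 libraries lay below both DMSO libraries for 3215 genes (23.5%) and above them for 3000 (22%), and these 2 shares are the background for every count of non-overlapping groups given here. Just outside the threshold, 49 lower and 31 higher genes had an adjusted p between 0.05 and 0.1. On simulated counts of the same size, 150 of 194 genes changed 4-fold (77.3%) were recovered, and 4 unchanged genes were called. Smaller changes, such as the median log2 fold change of -1.65 among the lower calls, were not simulated. The counts depended on single libraries: without DMSO replicate 1 there were 16 lower and 15 higher genes, without DMSO replicate 2 133 and 238, without dTAG13 replicate 1 37 and 57, and without dTAG13 replicate 2 74 and 38. Other settings gave from 7 to 142 lower and from 9 to 106 higher genes.

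**Figure D1:**
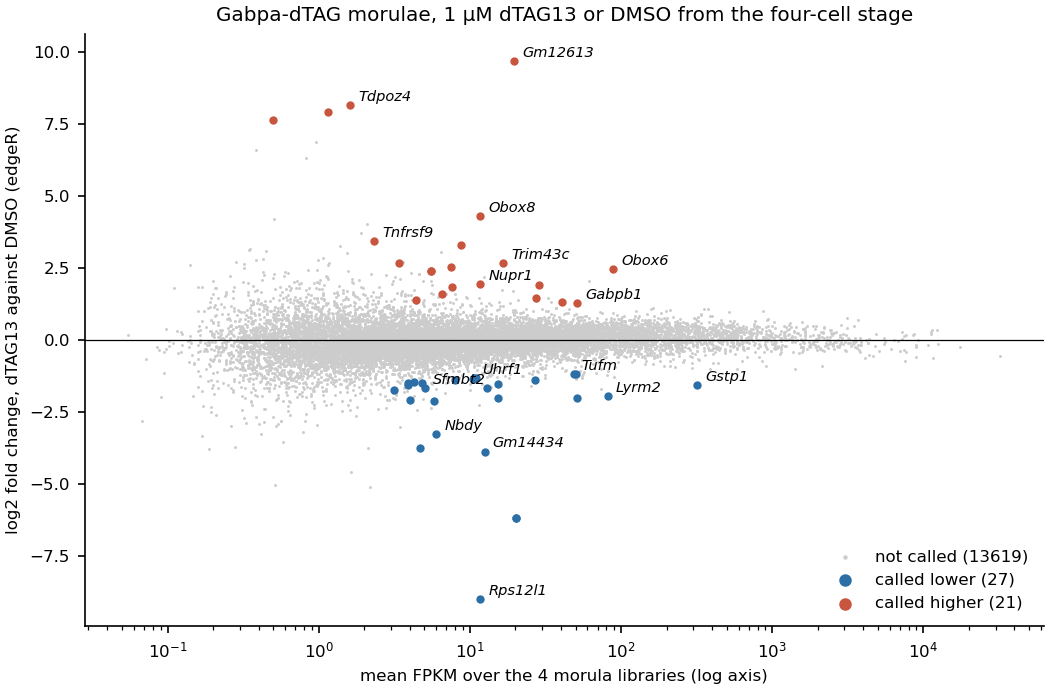
Each point is 1 of the 13667 genes tested in morulae, placed by its mean FPKM over the 4 libraries (log axis) and its log2 fold change with dTAG13 against DMSO. The 27 genes called lower (blue) and the 21 called higher (red) stand out from a cloud centred close to 0. The 4 highest points and the lowest are genes at or near 0 in a group, whose fold is fitted and not measured.

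Of the 27 genes that fell, 21 were protein-coding, 4 were processed pseudogenes, 1 was a lincRNA and 1 a ribozyme. They are described below by what their products are known to do, an order set after the calls that carries no test. Lyrm2, which encodes a mitochondrial protein of the LYR-motif family, had the smallest adjusted p among the protein-coding genes that also fell at every other stage. It stood at 135 and 127 FPKM in the DMSO libraries and 22.2 and 40.8 FPKM in the dTAG13 libraries, with the groups well apart (log2 fold change -1.94, SE 0.27, adjusted p = 0.0041). Tufm encodes the mitochondrial elongation factor Tu, which brings aminoacyl-tRNA to the mitochondrial ribosome. Tufm was at 68.7 and 67 FPKM in the DMSO libraries and 28.1 and 30 FPKM in the dTAG13 libraries (log2 fold change -1.17, SE 0.2, adjusted p = 0.0219), and the replicates of each group were close to each other. Dlst encodes the E2 subunit of the 2-oxoglutarate dehydrogenase complex of the citric acid cycle, and was at 17.6 and 13.1 FPKM with DMSO against 5.26 and 6 with dTAG13 (log2 fold change -1.35, SE 0.25, adjusted p = 0.0302). Synj2bp encodes a protein of the mitochondrial outer membrane, and was at 24.8 and 20 FPKM with DMSO against 6.16 and 10.2 with dTAG13 (log2 fold change -1.53, SE 0.27, adjusted p = 0.0239). In none of these genes did a dTAG13 library reach a DMSO library. Lyrm2 passed in each of the 4 fits that left out a library. Over these fits the log2 fold change ran from -1.25 to -1.06 for Tufm, from -1.5 to -1.19 for Dlst and from -1.89 to -1.22 for Synj2bp. Not every such fit kept the calls of Tufm, Dlst and Synj2bp.

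Genes for chromatin, transcription and RNA export proteins come next. Sfmbt2, an imprinted gene that encodes a Polycomb group protein, was at 7.46 and 8.39 FPKM in the DMSO libraries and 2.26 and 2.02 FPKM in the dTAG13 libraries (log2 fold change -1.65, SE 0.24, adjusted p = 0.00831). Uhrf1, whose product recruits the maintenance methyltransferase DNMT1 to hemimethylated DNA, was at 16.4 and 14.4 FPKM with DMSO against 5.76 and 6.27 with dTAG13 (log2 fold change -1.3, SE 0.22, adjusted p = 0.021). Its partner Dnmt1 was at 12.7 and 11.5 FPKM with DMSO against 5.83 and 6.47 with dTAG13, also without overlap, but did not pass (log2 fold change -0.8, adjusted p = 0.201). Gatad1, which encodes a GATA-type zinc finger protein, was at 32.6 and 47.9 FPKM with DMSO against 13.8 and 13.8 with dTAG13 (log2 fold change -1.38, SE 0.24, adjusted p = 0.0229). Eaf1 encodes an associated factor of the elongation factor ELL and was at 6.27 and 5.57 FPKM with DMSO against 1.9 and 1.95 with dTAG13 (log2 fold change -1.48, adjusted p = 0.0229). Zfp384, a zinc finger transcription factor gene, was at 7.89 and 6.68 FPKM with DMSO against 2.02 and 2.82 with dTAG13 (log2 fold change -1.48, adjusted p = 0.0425). Ddx19a, which encodes an RNA helicase of mRNA export, was at 12.4 and 10.4 FPKM with DMSO against 4.55 and 4.41 with dTAG13 (log2 fold change -1.38, adjusted p = 0.0271). All of these except Dnmt1 were called, and in each the lowest DMSO library lay above the highest dTAG13 library. Sfmbt2 and Gatad1 passed with any single library left out. Uhrf1 did not without dTAG13 replicate 1 (adjusted p = 0.0716). Without DMSO replicate 1 the adjusted p was 0.0794 for Eaf1, 0.134 for Zfp384 and 0.0897 for Ddx19a. Without dTAG13 replicate 1 it was 0.0599 for Eaf1 and 0.199 for Zfp384, and without dTAG13 replicate 2 it was 0.0729 for Ddx19a.

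The other protein-coding genes that fell have diverse roles. Gstp1, which encodes a glutathione S-transferase and was the most highly expressed of the lower genes, stood at 396 and 549 FPKM in the DMSO libraries and 132 and 190 FPKM in the dTAG13 libraries (log2 fold change -1.55, SE 0.24, adjusted p = 0.0134). Mapk1ip1l was at 21 and 18.3 FPKM with DMSO against 4.71 and 7.47 with dTAG13 (log2 fold change -1.65, SE 0.23, adjusted p = 0.00581), and Rabep2, which encodes a Rab effector of endocytic trafficking, was at 7.14 and 11.4 FPKM with DMSO against 2.29 and 2.21 with dTAG13 (log2 fold change -2.1, SE 0.33, adjusted p = 0.0134). These 3 genes passed with any single library left out. The ubiquitin ligase genes Trim11 and G2e3 also fell. Trim11 was at 7.1 and 5.87 FPKM with DMSO against 1.88 and 1.17 with dTAG13 (log2 fold change -2.06, adjusted p = 0.021) and G2e3 at 6.84 and 5.23 FPKM with DMSO against 1.71 and 1.74 with dTAG13 (log2 fold change -1.55, adjusted p = 0.0239). Nbdy, which encodes a microprotein of P-bodies, was at 7.3 and 14.9 FPKM with DMSO against 1.02 and 0.66 with dTAG13 (log2 fold change -3.25, SE 0.51, adjusted p = 0.0134), on no more than 82 counts in a library. Abracl was at 29 and 22.1 FPKM with DMSO against 5.42 and 4.85 with dTAG13 (log2 fold change -2.0, adjusted p = 0.0177). Adgre5, an adhesion G protein-coupled receptor gene, was at 17.4 and 12.7 FPKM with DMSO against 5.8 and 7.63 with dTAG13 (log2 fold change -1.33, adjusted p = 0.04). The uncharacterized 0610030E20Rik was at 6.37 and 6.46 FPKM with DMSO against 2.09 and 2.04 with dTAG13 (log2 fold change -1.45, adjusted p = 0.0245), with replicates closer to each other than in most called genes.

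Some of these calls also did not hold when a single library was left out. Without DMSO replicate 1 the adjusted p was 0.0728 for Trim11, 0.0908 for G2e3, 0.0657 for Abracl, 0.129 for Adgre5 and 0.0728 for 0610030E20Rik. Without dTAG13 replicate 1 it was 0.0983 for G2e3 and 0.158 for Adgre5, and without dTAG13 replicate 2 it was 0.0655 for 0610030E20Rik. Nbdy had too few counts to be tested once a DMSO library was left out. In all, 7 of the 27 lower genes and 6 of the 21 higher genes kept an adjusted p under 0.05 in each of the 4 fits that left out a library.

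Most of the remaining lower genes are harder to assign to a single locus. The pseudogenes Gm13841 and Gm8210 had the same values, 48.2 and 32.1 FPKM in the DMSO libraries and 0.43 and 0.59 FPKM in the dTAG13 libraries, and a posterior SD (the uncertainty that RSEM gives to a count) above 60% of the count. They are near-identical copies that share reads, so neither locus can be singled out. Rps12l1, a ribosomal protein pseudogene, was at 25.2 and 21.4 FPKM with DMSO against 0.0 and 0.0 with dTAG13, and lies wholly within another annotated gene. By its counts it was at least 22-fold lower, but the posterior SD was 245% of the count, so this bound is not secure for the locus. Gm13841, Gm8210 and Rps12l1 had too few counts to be tested once a DMSO library was left out. Rpph1, the RNA of ribonuclease P, was at 54.9 and 110 FPKM with DMSO against 15.5 and 23.8 with dTAG13 (log2 fold change -2.01, adjusted p = 0.0436), and 73.0% of its exon bases overlap Ccnb1ip1. The lincRNA Gm43055 overlaps other genes over 82.6% of its exon bases and was at 8.27 and 9.27 FPKM with DMSO against 1.23 and 0.0 with dTAG13 (log2 fold change -3.73, adjusted p = 0.0486). Its posterior SD was 29.6% of the count. Gm14434, a zinc finger gene of a multigene family, had 163 and 305 counts with DMSO and 20 and 15 with dTAG13 (log2 fold change -3.86), with a posterior SD of 31.0% of the count. Its FPKM gave a smaller ratio, 17.9 and 24.8 against 3.98 and 3.2, and RSEM sets the length behind an FPKM separately in each library. Without strand information, reads from overlapping genes cannot be told apart. CT030661.1 (4.85 and 4.97 FPKM with DMSO against 1.53 and 1.27 with dTAG13, adjusted p = 0.0657 without DMSO replicate 1) and the pseudogene Rpsa-ps10 (62.8 and 78.3 FPKM with DMSO against 30.3 and 30.3 with dTAG13, adjusted p = 0.121 without dTAG13 replicate 1 and 0.0719 without dTAG13 replicate 2) complete the list, and no exon base of either lies in another gene. Rpph1 was lost without DMSO replicate 2 (adjusted p = 0.0652) or dTAG13 replicate 1 (0.0706), and Gm43055 without DMSO replicate 1 (0.101).

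**Figure D2:**
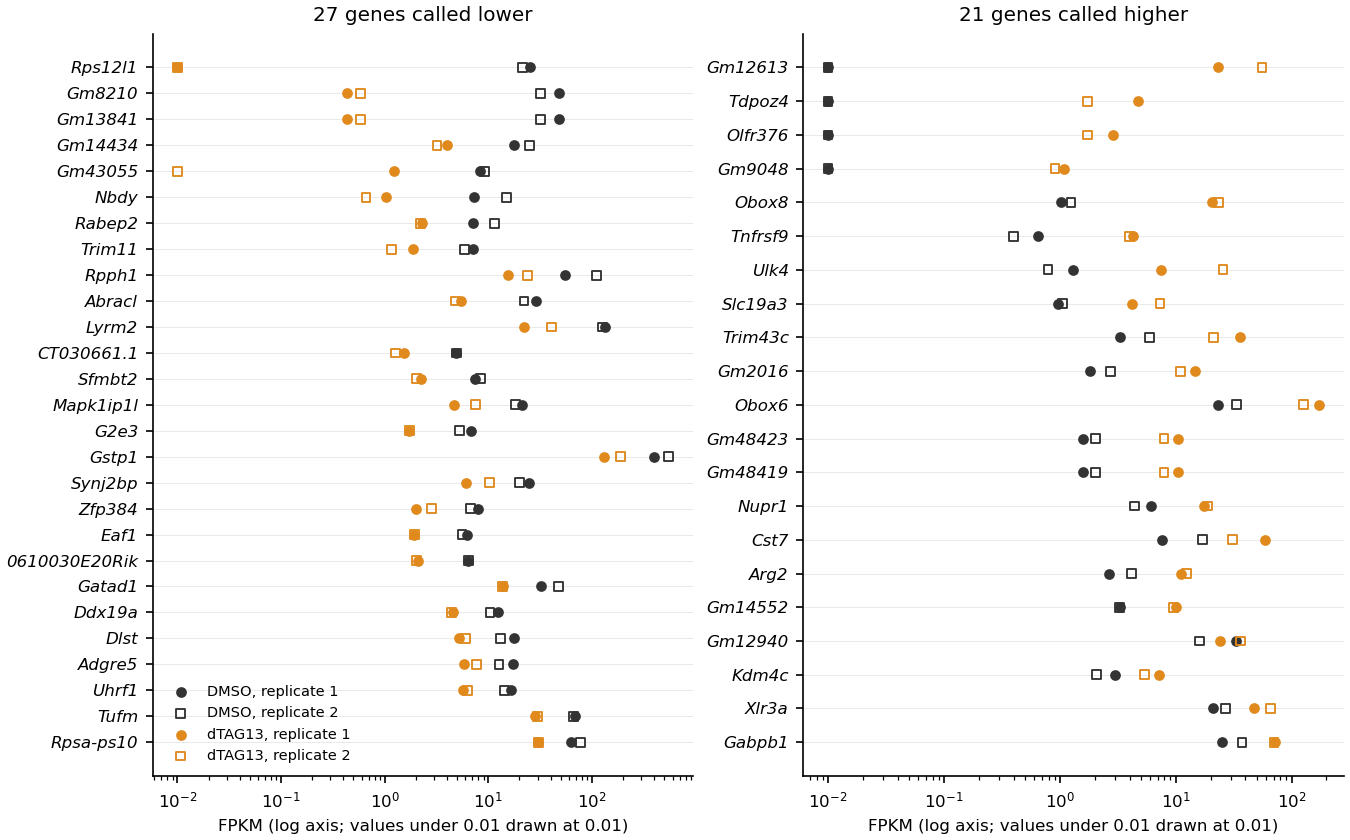
FPKM (log axis) of every called gene in each of the 4 morula libraries, with DMSO in black, dTAG13 in orange, replicate 1 as filled circles and replicate 2 as open squares. The left panel holds the 27 genes called lower and the right panel the 21 called higher, ordered by fold change. The groups do not overlap in any row but Gm12940, whose test used counts, and values under 0.01 are drawn at 0.01.

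The promoters of 17 of the 27 lower genes and 9 of the 21 higher genes were found by symbol in a RefSeq table (GRCm38.p6, 250 bases before to 50 after each start site). They were searched on both strands for the ETS letters CCGGAAG, which read CTTCCGG on the other strand. Of the lower genes 6 had a promoter with these letters (35.3%) and of the higher genes 1 (11.1%), beside 2024 of the 9588 tested symbols with a promoter (21.1%) and 2910 of all 32851 promoters in the table (8.86%). These stretches run from 120 bases before to 30 bases after the start site and are shown because the letters, in capitals, lie within them for 5 of the 6 lower genes and for Ulk4, the higher gene. In the sixth, Sfmbt2, the first base of the letters is at -234.
Tufm: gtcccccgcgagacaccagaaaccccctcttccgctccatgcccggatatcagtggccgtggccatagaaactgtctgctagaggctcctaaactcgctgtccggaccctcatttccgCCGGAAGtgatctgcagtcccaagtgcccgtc
Eaf1: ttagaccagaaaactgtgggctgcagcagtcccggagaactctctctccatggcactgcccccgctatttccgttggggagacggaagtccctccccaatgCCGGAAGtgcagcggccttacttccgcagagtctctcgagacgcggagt
0610030E20Rik: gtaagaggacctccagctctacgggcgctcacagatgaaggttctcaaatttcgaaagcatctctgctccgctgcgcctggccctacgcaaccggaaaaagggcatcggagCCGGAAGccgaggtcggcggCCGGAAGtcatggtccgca
Dlst: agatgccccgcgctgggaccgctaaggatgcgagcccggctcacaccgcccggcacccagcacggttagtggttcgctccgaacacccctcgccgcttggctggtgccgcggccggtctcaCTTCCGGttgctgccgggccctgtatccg
Zfp384: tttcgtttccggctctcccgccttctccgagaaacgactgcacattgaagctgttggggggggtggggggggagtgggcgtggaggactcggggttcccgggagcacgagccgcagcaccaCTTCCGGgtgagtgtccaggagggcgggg
Ulk4: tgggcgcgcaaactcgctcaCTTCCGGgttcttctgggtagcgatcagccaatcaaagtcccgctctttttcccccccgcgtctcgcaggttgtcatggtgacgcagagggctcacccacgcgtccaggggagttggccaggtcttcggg
By position, the stretches are chr7:126487235-126487384, plus strand, for Tufm, chr14:31494959-31495108, plus strand, for Eaf1, chr6:72347197-72347346, plus strand, for 0610030E20Rik, chr12:85110713-85110862, plus strand, for Dlst, chr6:125009118-125009267, plus strand, for Zfp384 (the second of its 4 listed promoters) and chr9:121277143-121277292, minus strand, for Ulk4. Counted from +1 at the start site, the first base of the letters is at -2 in Tufm, at -19 in Eaf1, at -9 and 12 in 0610030E20Rik, at 2 in Dlst and Zfp384 and at -100 in Ulk4. A further listed promoter of Zfp384, not shown, also holds the letters, at -45. A match is a description of the sequence and not evidence of binding.

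Over all genes with a listed promoter, the morula values were split by these letters, as a description. The 2026 tested genes with the letters had a median log2 fold change of -0.12, 62.4% of them below 0, and 248 against 84 had an unadjusted p under 0.05 in the lower and higher direction. The 7568 genes without the letters had a median of 0.02, 48.7% below 0, and 434 against 552 such genes. The 393 genes with the letters at least 2 times had a median of -0.19, with 70.0% below 0. The called genes were few in each class: 6 lower and 1 higher with the letters, and 11 lower and 8 higher without them.

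The genes that rose were led by the homeobox family Obox, whose members are abundant around genome activation and then decline. Obox8 stood at 1.03 and 1.25 FPKM in the DMSO libraries and 20.7 and 23.4 FPKM in the dTAG13 libraries (log2 fold change 4.32, SE 0.35, adjusted p = 6.1e-05), on 10 and 14 counts with DMSO and 260 and 271 with dTAG13. Obox6 stood at 23.4 and 33.2 FPKM in the DMSO libraries and 173 and 126 FPKM in the dTAG13 libraries (log2 fold change 2.46, SE 0.24, adjusted p = 0.00016). Both passed with any single library left out. Of the 9 family members listed, 3 had enough counts to be tested and 2 were called. The third was Crxos, a divergent relative of the family, named after its values were seen. It stood at 7600 and 8710 FPKM with DMSO against 8480 and 9800 with dTAG13 (log2 fold change 0.23, adjusted p = 0.635), and was not called. In control late two-cell embryos the mean level was 995 FPKM for Obox8 and 1120 FPKM for Obox6, so the dTAG13 morulae remained far below the earlier stage.

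Other genes of the two-cell stage rose as well. The list of such genes held 34 symbols found in the tables, of which 17 were tested, 3 were called higher and 0 lower. Of the 17, 14 had a log2 fold change above 0, 12 were higher without overlap and the median was 0.62, or 0.985 without DMSO replicate 1. Gm2016, a member of this list, was at 1.81 and 2.74 FPKM with DMSO against 14.6 and 11 with dTAG13 (log2 fold change 2.53, SE 0.32, adjusted p = 0.00196). Arg2, which encodes the mitochondrial arginase, was at 2.67 and 4.15 FPKM with DMSO against 11.1 and 12.4 with dTAG13 (log2 fold change 1.85, SE 0.33, adjusted p = 0.0239). Tdpoz4 was at 0 in both DMSO libraries and at 4.77 and 1.73 FPKM with dTAG13, at least 11.1-fold higher against a floor of 3 counts per library. Members best known for the two-cell state, Zscan4a to Zscan4f and Duxf3 (named after their values were seen), did not exceed 0.62 FPKM in any library. Among called genes outside this list, Trim43c was at 3.28 and 5.98 FPKM with DMSO against 36 and 21.1 with dTAG13 (log2 fold change 2.67, SE 0.32, adjusted p = 0.00121) and kept its call with any library left out, as did Gm2016. Arg2 was lost without DMSO replicate 1 (adjusted p = 0.0973), and so was Tdpoz4 (0.0674), which was not testable without either dTAG13 library.

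Of 20 oocyte transcripts tested, 10 were above 0 and 10 below, 0 were called in either direction, 1 higher and 1 lower had an unadjusted p under 0.05, and the median was 0.03. In the fits that left out a library this median ran from 0.081 to 0.233. A difference from the list of two-cell stage genes was not tested. All genes were then grouped by their DMSO levels at 2 other stages, so that no morula value entered the split, which was chosen after values had been seen. The 881 tested genes at least 8 times higher in late two-cell embryos than in the E4.5 inner cell mass (ICM) had a median of 0.24, 67.0% above 0, with 13 called higher and 0 lower. The 1188 genes at least 8 times higher in the ICM had a median of -0.05, 45.3% above 0, with 1 called higher and 8 lower, and the 3068 genes within 2 times had a median of 0.02.

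The other higher genes included several with a known single function. Tnfrsf9, a co-stimulatory receptor gene, was at 0.65 and 0.4 FPKM with DMSO against 4.3 and 3.99 with dTAG13 (log2 fold change 3.44, SE 0.52, adjusted p = 0.00927) and had too few counts to be tested without either dTAG13 library. Slc19a3, a thiamine transporter gene, was at 0.97 and 1.06 FPKM with DMSO against 4.19 and 7.31 with dTAG13 (log2 fold change 2.69, adjusted p = 0.021), and was lost without DMSO replicate 1 (adjusted p = 0.0908) or dTAG13 replicate 2 (0.106). Nupr1, a stress-induced transcriptional regulator gene, was at 6.07 and 4.44 FPKM with DMSO against 17.6 and 18.8 with dTAG13 (log2 fold change 1.95, adjusted p = 0.0239, 0.0657 without DMSO replicate 1). Cst7, which encodes cystatin F, was at 7.64 and 16.9 FPKM with DMSO against 58.4 and 31.1 with dTAG13 (log2 fold change 1.91, adjusted p = 0.0319), and Kdm4c, which encodes a histone H3K9 demethylase, was at 3.01 and 2.06 FPKM with DMSO against 7.11 and 5.4 with dTAG13 (log2 fold change 1.4, adjusted p = 0.0484). The call of Cst7 was lost without DMSO replicate 1 (adjusted p = 0.113), and that of Kdm4c without DMSO replicate 1 (0.0794), dTAG13 replicate 1 (0.115) or dTAG13 replicate 2 (0.0516). Xlr3a was at 21 and 27.1 FPKM with DMSO against 47.8 and 66.2 with dTAG13 (log2 fold change 1.33, adjusted p = 0.0319, 0.119 without DMSO replicate 1 and 0.0996 without dTAG13 replicate 2).

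The last higher genes carried larger uncertainty. The posterior SD was 30.5% of the count for Ulk4 and 66.4% for Gm9048. Ulk4 was at 1.3 and 0.79 FPKM with DMSO against 7.53 and 25.6 with dTAG13 (log2 fold change 3.3, adjusted p = 0.0223), its 2 dTAG13 libraries lay far apart, and the adjusted p was 0.0734 without DMSO replicate 1 and 0.129 without dTAG13 replicate 2. The lincRNAs Gm48419 and Gm48423 shared the values 1.57 and 2.03 FPKM with DMSO against 10.5 and 7.92 with dTAG13 and a posterior SD above 60% of the count, so they count as 1 measurement. The lincRNA Gm14552 was at 3.32 and 3.25 FPKM with DMSO against 10 and 9.64 with dTAG13 (log2 fold change 1.61, adjusted p = 0.0239), with close replicates, and at 0.0728 without DMSO replicate 1. The olfactory receptor gene Olfr376 and Gm9048 were at 0 in both DMSO libraries, and with dTAG13 they were at 2.85 and 1.74 FPKM, at least 9.58-fold higher, and at 1.09 and 0.91 FPKM, at least 7.91-fold higher. Neither could be tested without a dTAG13 library, and without DMSO replicate 1 the adjusted p was 0.0657 for Olfr376 and 0.0728 for Gm9048. The pseudogene Gm12613 was at 0.0 and 0.01 FPKM with DMSO and 23.3 and 55.6 with dTAG13, with a posterior SD above the count itself, and was not testable without a dTAG13 library. Gm12940 was called on 87 and 99 counts against 273 and 292, yet its FPKM overlapped (32.9 and 16.1 FPKM with DMSO against 23.9 and 36.1 with dTAG13), and 71.8% of its exon bases lie in other genes. Without DMSO replicate 1 its adjusted p was 0.0674 and without dTAG13 replicate 2 0.0725.

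Genes of the first lineages were mostly close to 0, and 0 of the 14 lineage genes named here were called. Pou5f1, which encodes the pluripotency factor OCT4, was at 73.3 and 81.6 FPKM with DMSO against 92.1 and 74 with dTAG13 (log2 fold change 0.16, SE 0.2, adjusted p = 0.766), and Nanog was at 121 and 91 FPKM with DMSO against 90 and 84.9 with dTAG13 (log2 fold change -0.2, SE 0.2, adjusted p = 0.704). In both genes the groups overlapped or lay next to each other. Klf4 (-0.18), Tfap2c (-0.1) and Nr5a2 (-0.03), further pluripotency-associated factors, had log2 fold changes of that size as well. Of the trophectoderm factors, Cdx2 was at 5.29 and 5.76 FPKM with DMSO against 5.2 and 5.78 with dTAG13 (log2 fold change 0.06, adjusted p = 0.953), Gata3 had a log2 fold change of -0.31 and Tead4, their Hippo-regulated activator, of -0.27. The epithelial keratin genes Krt8 and Krt18 were at 0.19 and 0.35, and the primitive endoderm factor Gata6 was at 113 and 92.6 FPKM with DMSO against 76.4 and 77.6 with dTAG13 (log2 fold change -0.27, adjusted p = 0.554).

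Sox2, a pluripotency factor gene that is restricted to inner cells in the morula, changed more than the lineage genes above but did not pass. Sox2 was at 6.85 and 6.05 FPKM in the DMSO libraries and 0.97 and 3.5 FPKM in the dTAG13 libraries (log2 fold change -1.45, SE 0.46, adjusted p = 0.207). Both dTAG13 libraries lay below both DMSO libraries, and they were farther apart from each other than the DMSO libraries were. The size rested on single libraries, at -2.68 when dTAG13 replicate 2 was left out and -0.76 when dTAG13 replicate 1 was. Over 17 alternatives the adjusted p ran from 0.00112 to 0.903, and it was under 0.05 in 3 of them, without dTAG13 replicate 2, without a filter on low counts and with the replicate number as a block. The primitive endoderm genes Gata4 and Sox17 were scarcely present at this stage. Gata4 was at 0.09 and 0.24 FPKM with DMSO against 0.54 and 0.66 with dTAG13 (log2 fold change 2.79, adjusted p = 0.204), and Sox17, at 0.69 and 0.3 FPKM with DMSO against 0.09 and 0.05 with dTAG13, had too few counts to be tested.

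**Figure D3:**
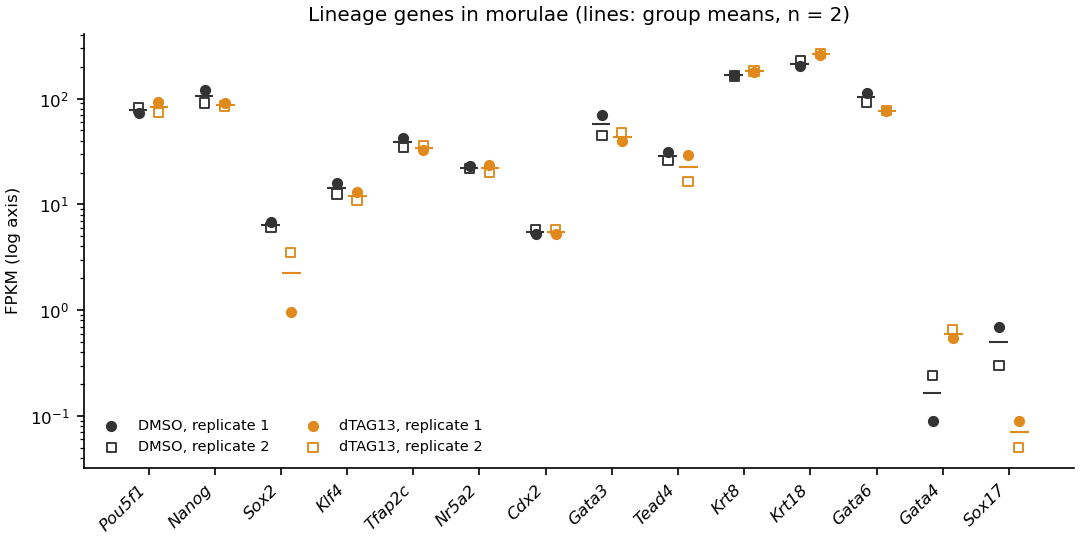
FPKM (log axis) of 14 lineage genes in the 4 morula libraries, DMSO in black and dTAG13 in orange, with short lines at the group means (n = 2). Sox2 and Sox17 sit lower and Gata4 higher with dTAG13, the groups of the other genes lie close together, and none of the 14 passed the test.

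The lineage and morphogenesis lists behaved like these single genes. Of 38 tested pluripotency factors 1, Uhrf1, was called lower and 0 higher, with a median of -0.01. Among 17 trophectoderm transcription factors, 21 Hippo pathway genes, 40 genes of compaction, polarity and junctions and 24 genes of trophectoderm transport, 0 were called in either direction by edgeR, and the medians were 0.06, -0.08, 0.03 and 0.16. In these 4 lists 0, 1, 1 and 1 genes had an unadjusted p under 0.05 in the lower direction and 2, 1, 4 and 2 in the higher. Of 17 tested primitive endoderm genes 13 were below 0 and 4 above, with a median of -0.27 and 0 called by edgeR, although 2 had an unadjusted p under 0.05, both higher. Among 30 imprinted genes 1, Sfmbt2, was called lower, and the median was -0.12.

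The gene lists that the study drew up for the ICM, trophectoderm (TE), epiblast (EPI) and primitive endoderm (PrE) were made from other data sets than these libraries. Of the 550 tested early ICM genes 1 was called lower and 3 higher (median 0.07), with 38 and 57 at an unadjusted p under 0.05. Of the 136 late ICM genes 0 and 1 were called (median -0.2, 83 below 0 and 53 above), with 17 and 5 at an unadjusted p under 0.05. Of the 674 early TE genes 1 and 1 were called (median 0.07), with 36 and 60 at an unadjusted p under 0.05, and of the 243 late TE genes 1 and 1 (median -0.06), with 11 and 11. The 116 early and 46 late EPI genes had 0 calls by edgeR and medians of 0.08 and 0.07, with 7 and 0 at an unadjusted p under 0.05 in the lower and 6 and 1 in the higher direction. The 150 early PrE genes had 1 called lower, Sfmbt2, and a median of 0.12, with 6 lower and 22 higher at an unadjusted p under 0.05 and 25 lower and 51 higher without overlap, and the 72 late PrE genes had 0 called, 3 and 5 at an unadjusted p under 0.05 and a median of 0.03. Beside these counts stand the 0.198% lower and 0.154% higher calls of all genes.

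The mitochondrial lists, which hold known GABPA targets, had few calls. Of 27 mitochondrial translation factors and tRNA synthetases 1, Tufm, was called lower, 20 were below 0 and 7 above, 10 were lower and 1 higher without overlap, and the median was -0.17. At an unadjusted p under 0.05 there were 5 lower and 0 higher. The 81 mitochondrial ribosomal proteins had 36 below 0 and 45 above, a median of 0.03 and 0 calls, with 5 lower and 4 higher at an unadjusted p under 0.05. Mrpl33, a gene for a protein of the large mitochondrial subunit, was at 1130 and 1030 FPKM with DMSO against 557 and 712 with dTAG13 (log2 fold change -0.72, SE 0.2, adjusted p = 0.166), with no overlap but without passing. The 75 nuclear subunits of oxidative phosphorylation had a median of 0.1, 0 calls, and 2 lower and 10 higher at an unadjusted p under 0.05. The 18 genes of mitochondrial DNA transcription and replication and the 34 of protein import had medians of -0.03 and -0.02 and 0 calls, with 0 lower in both lists and 1 and 2 higher at an unadjusted p under 0.05. The 13 protein-coding transcripts of the mitochondrial genome had a median of -0.17 and 0 calls, 1 of them lower at an unadjusted p under 0.05. Summed over the list, the DMSO libraries held 72400 and 70700 FPKM, against 56700 and 66100 FPKM after dTAG13. The median was -0.024 without dTAG13 replicate 1 and -0.3 without dTAG13 replicate 2.

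The citric acid cycle list ran the other way from its called member. Of 22 tested enzymes 1, Dlst, was called lower, while 16 were above 0, 10 were higher without overlap and the median was 0.35. The median was 0.11 without DMSO replicate 1. The 37 proteasome subunits had 30 above 0, 19 higher and 2 lower without overlap, a median of 0.25 and 0 calls, with 7 higher and 0 lower at an unadjusted p under 0.05. Without DMSO replicate 1 their median was 0.099, and without DMSO replicate 2 it was 0.435. Psmb6, a catalytic subunit gene of the core particle, was at 1380 and 1590 FPKM with DMSO against 1720 and 1860 with dTAG13 (log2 fold change 0.33, adjusted p = 0.47). The 82 cytosolic ribosomal proteins had 64 below 0, a median of -0.13 and 0 calls, with 2 lower at an unadjusted p under 0.05. Without DMSO replicate 1 their median was 0.025, and without DMSO replicate 2 it was -0.238. For ribosome biogenesis (92 genes, median -0.02), DNA replication (42, -0.03) and glycolysis (16, 0.01), 0 genes were called, with 11 and 9, 7 and 3, and 0 and 0 genes lower and higher at an unadjusted p under 0.05.

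The stress lists and the other ETS factors had at most 1 call each. Of 28 tested members of the p53 list 0 were called, 3 lower and 1 higher had an unadjusted p under 0.05, 21 were below 0 and the median was -0.18. Cdkn1a, the cell cycle inhibitor gene under p53, was at 322 and 267 FPKM with DMSO against 287 and 318 with dTAG13 (log2 fold change 0.1, adjusted p = 0.86). Of 27 ATF4 targets 1, Nupr1, was called higher, and the median was -0.03. Of 14 other ETS factors 0 were called, 2 lower and 1 higher had an unadjusted p under 0.05, and the median was -0.28, which became 0.12 without DMSO replicate 1. Spic, the most abundant of them, was at 86.7 and 189 FPKM with DMSO against 301 and 269 with dTAG13 (log2 fold change 1.04, SE 0.28, adjusted p = 0.143), with wide spread in the controls. Elf2 was at 33.4 and 37.4 FPKM with DMSO against 19.8 and 20.6 with dTAG13 (log2 fold change -0.72, adjusted p = 0.239) and Elf3 at 133 and 120 FPKM with DMSO against 106 and 75.2 with dTAG13 (log2 fold change -0.4, adjusted p = 0.407), and neither passed.

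**Figure D4:**
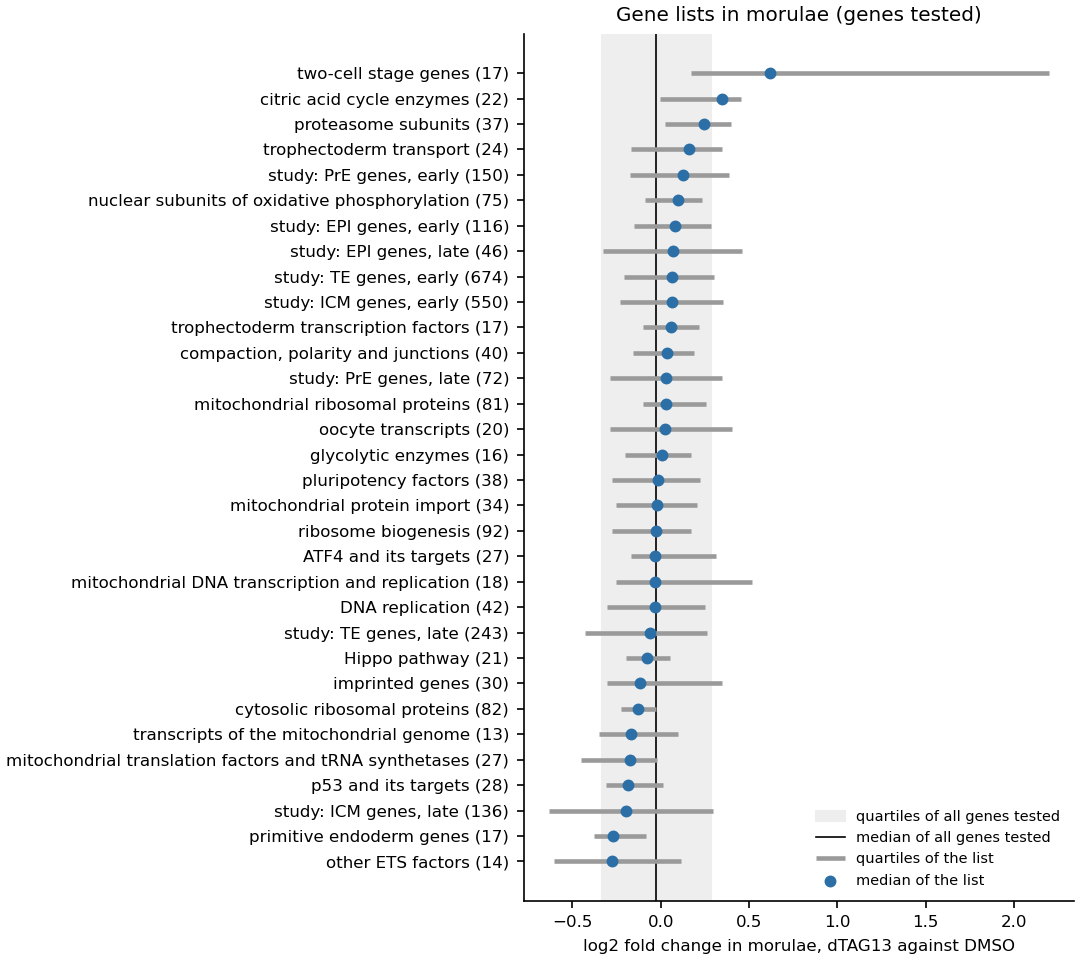
Median (points) and quartiles (grey bars) of the log2 fold change in morulae for the pathway, cell type and study gene lists with at least 10 tested members (number in brackets; the morula markers and the genes called at other stages are not drawn), with the median (line) and quartiles (band) of all genes. The medians drawn lie between -0.28 for the other ETS factors and 0.62 for the two-cell stage genes, and all but the 2 highest, the two-cell stage genes and the citric acid cycle enzymes, lie within the band.

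Genes that fell at other stages were then looked up in morulae. The other stages are late two-cell embryos (dTAG13 from 6 to 30 hpf), the ICM labelled E4.5 and 2iES cells, and each stage had its own DMSO libraries. The ICM came from blastocysts treated from the early blastocyst, and the study states that it was collected at the mid-blastocyst stage. The 2iES cells are naive embryonic stem cells treated for 24 hours with 0.5 µM. Of 633 genes called lower in late two-cell embryos 611 were tested in morulae. Of these 463 (75.8%) were below 0, beside 51.9% of all genes, 298 were lower without overlap, 8 were called lower and the median was -0.27, or -0.175 without DMSO replicate 2. Of the genes called lower in the ICM, 1698 were tested, 1190 were below 0, 18 were called lower and the median was -0.27. For 2iES cells the numbers were 2146, 1367, 14 and -0.15.

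The 242 genes called lower at all 3 other stages stood lowest. Of these 239 were tested in morulae, 214 (89.5%) were below 0, 154 were lower and 3 higher without overlap, and the median was -0.45, with quartiles at -0.81 and -0.2. In all, 7 were called, while 99 had an unadjusted p under 0.05 in the lower direction and 1 in the higher. Their promoters held the letters CCGGAAG in 123 of 188 cases (65.4%). Genes called higher elsewhere had medians of -0.03 (40 genes, late two-cell), 0.02 (1415, ICM) and -0.01 (1455, 2iES cells) in morulae.

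The members of this shared set with the smallest adjusted p in morulae can be followed across stages. The log2 fold change of Lyrm2 was -1.94 in morulae, -2.23 in late two-cell embryos, -5.03 in the ICM and -6.83 in 2iES cells. For Tufm the 4 values, in the same order, were -1.17, -5.28, -2.15 and -2.6, and for 0610030E20Rik -1.45, -4.05, -5.59 and -5.57. For Eaf1 the values were -1.48, -3.3, -5.32 and -1.94, and for Synj2bp -1.53, -3.36, -2.01 and -1.34. Mapk1ip1l had similar values, with -1.65, -1.59, -1.38 and -1.24, and so had Zfp384, with -1.48, -1.32, -1.89 and -2.35. Itpa, a nucleotide pyrophosphatase gene, just missed the threshold in morulae at 67 and 91 FPKM with DMSO against 35.3 and 36 with dTAG13 (log2 fold change -1.09, SE 0.22, adjusted p = 0.0501), and its other values were -2.59, -4.91 and -5.24. Doses and hours of treatment differed between stages, so these values are only set side by side.

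Called genes in morulae were in part called elsewhere. Of the 27 lower genes, 22 were tested in late two-cell embryos, 25 in the ICM and 23 in 2iES cells. Of these, 8, 18 and 14 were also called lower there, and 19 were in at least 1 of these stages, a count without a share over all genes. The other stages call 3.63%, 13.2% and 15.6% of their tested genes lower. The ICM also called 4 of them higher, namely Gm13841, Gm8210, Rpsa-ps10 and Rpph1. Gstp1, for example, had log2 fold changes of -4.21 in the ICM and -2.13 in 2iES cells, and Dlst of -2.64 and -4.03. Of the 21 higher genes, all tested in late two-cell embryos, 0 were called higher there (0.476% of all genes tested there). In the ICM 7 of 16 tested were called higher (12.1% of all), and in 2iES cells 4 of 13 (12.4%). Tnfrsf9 (5.34 and 3.22), Arg2 (4.6 and 1.55) and Gabpb1 (1.33 and 2.1) were higher in both. Nupr1 was called lower in the ICM (-1.48) and in 2iES cells (-1.28) and higher in morulae, and Ulk4 was called lower in the ICM (-1.86).

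Whether the effect differed between stages was tested gene by gene as the dTAG13 effect in morulae minus that at another stage. Against late two-cell embryos, 44 of 18729 genes (0.235%) had a difference below 0 and 619 (3.31%) above 0 at an adjusted p under 0.05. Mrpl33 was among the latter, with a log2 fold change of -0.72 in morulae and -5.21 in late two-cell embryos, and so was Obox8, with 4.32 and -0.14. Against the ICM, 2366 of 16665 genes (14.2%) were below 0 and 2510 (15.1%) above. The keratin gene Krt18 had 0.35 in morulae and 4.29 in the ICM, and Itpa had -1.09 and -4.91. The ICM replicates were much closer to each other than the morula replicates (biological coefficient of variation 0.0237 against 0.213), and the length of treatment differed too, so stage and treatment cannot be told apart. Each of these tests fitted both stages with a shared estimate of spread, so the noise of the morulae can be understated. The adjusted p and the counts of differences may therefore be too favourable.

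**Figure D5:**
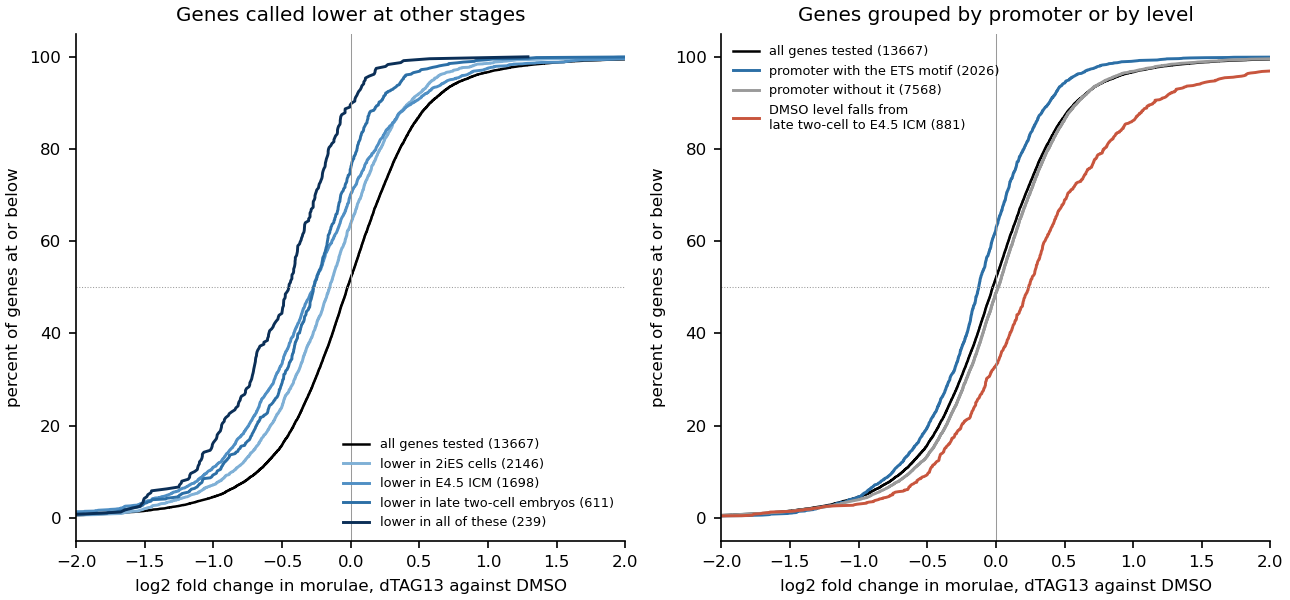
Cumulative percent of genes (y axis) at or below each log2 fold change in morulae (x axis), for sets chosen outside the morula contrast, with the number of genes in brackets. On the left, genes called lower at other stages lie to the left of all genes, the 239 shared genes farthest (median -0.45). On the right, genes whose promoter holds the ETS letters have a median of -0.12, genes without them 0.02, and the 881 genes whose control level declines from late two-cell embryos to the ICM 0.24.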

How the data were processed

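RNA of pooled morulae was made into libraries with SMART-Seq v4 and Nextera XT, which do not keep strand. The authors trimmed reads with Trimmomatic 0.39 and used STAR and RSEM on GRCm38. The deposited tables give expected counts per gene, which need not be whole, FPKM set by the authors' RSEM run, and a posterior standard deviation of each count, treated here as a score. TPM columns were not used. Expected counts were rounded, and genes reaching 10 counts in 2 or more of the 4 libraries were scaled by TMM and tested with edgeR 4.0.16 (quasi-likelihood, R 4.3.3) with Benjamini-Hochberg adjustment over all tested genes, 2 libraries against 2. limma 3.58.1 and DESeq2 1.42.0 served as alternatives. The script was tested on simulated data. The study states that RNA-seq was repeated, but how the morula pools of the replicates were collected is not given in the sources used here, so p-values measure the spread between these libraries. Genes named are the GABP subunits, lineage genes, the 15 lower and 15 higher coding or lncRNA genes with the smallest adjusted p, up to 4 pseudogenes, leading members of each list, the shared set and the stage differences, and the other called genes were named after their values were seen. The members and lists were chosen with earlier results of these data known. Chromatin libraries were not analysed here.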

Additional observations from a re-analysis of the deposited data

Results flagged for a closer look

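The dTAG13 effect on several named genes differed between morulae and another stage by an interaction test in edgeR. The values are the log2 effect in morulae minus that at the other stage. Against late two-cell embryos the difference was 4.52 (adjusted p = 1.47e-06, from 4.32 in morulae and -0.14 there) for Obox8, 4.56 (adjusted p = 1.47e-06, from -0.72 in morulae and -5.21 there) for Mrpl33 and 2.66 (adjusted p = 9.56e-05, from 2.46 in morulae and -0.15 there) for Obox6. It was 2.72 (adjusted p = 0.000661, from 2.67 in morulae and 0.01 there) for Trim43c, 1.82 (adjusted p = 0.000944, from 1.61 in morulae and -0.14 there) for the lincRNA Gm14552 and 1.26 (adjusted p = 0.000949, from -0.07 in morulae and -1.26 there) for Tomm5, which encodes a subunit of the outer membrane translocase. Over all genes 44 differences were below 0 and 619 above 0. The SE of the difference was below that of the morula effect alone for Obox8 (0.25 against 0.35) and Gm14552 (0.24 against 0.29). It was close to it for Obox6 (0.23 against 0.24) and Trim43c (0.33 against 0.32), and above it for Mrpl33 (0.25 against 0.2). Both stages shared an estimate of spread, so the adjusted p and counts may be too favourable.

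Against the E4.5 ICM the difference was -3.98 (adjusted p = 2.03e-06, from 0.35 in morulae and 4.29 there) for Krt18, -2.54 (adjusted p = 8.18e-06, from 0.19 in morulae and 2.68 there) for Krt8 and -3.00 (adjusted p = 4.6e-06, from -0.11 in morulae and 2.85 there) for the desmosome gene Perp. In the other direction it was 3.38 (adjusted p = 1.44e-05, from 1.95 in morulae and -1.48 there) for Nupr1, 3.77 (adjusted p = 1.46e-05, from -1.09 in morulae and -4.91 there) for Itpa and 4.08 (adjusted p = 3.02e-05, from -1.45 in morulae and -5.59 there) for 0610030E20Rik. Over all genes 2366 were below 0 and 2510 above 0. The SE of the difference was below that of the morula effect alone for Krt18 (0.16 against 0.19) and Krt8 (0.14 against 0.19). It was also below for Perp (0.15 against 0.19) and Nupr1 (0.2 against 0.35). For Itpa (0.23 against 0.22) and 0610030E20Rik (0.29 against 0.26) it was slightly above. Here too the adjusted p and counts may be too favourable. The start of treatment and the tissue sampled differ between these stages, so these cannot be told apart.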

How the results depend on the processing

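The counts of called genes, 27 lower and 21 higher, moved with the processing. They were 32 and 20 with upper-quartile scaling, 27 and 22 with RLE size factors and 76 and 34 with library totals only. Without a filter on low counts they were 139 and 106, with at least 10 counts in all 4 libraries 48 and 35, and among protein-coding genes only 61 and 32. DESeq2 gave 66 and 44, a test against a fold change of 1.5 gave 7 and 10, limma on log2(FPKM + 1) gave 9 and 9 (only 3 and 2 of them shared with the 27 and 21), and a fit of all 18 RNA libraries gave 109 and 91. Deviations of same-numbered DMSO and dTAG13 libraries from their group means had r = 0.0225. So few libraries cannot show whether those of the same number were collected together, which is not given in the sources used here. With the replicate number as a block the counts were 142 and 106, and the genes more negative in morulae than in late two-cell embryos numbered 25.

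Leaving out 1 library gave 16 to 133 lower and 15 to 238 higher genes, the fewest without DMSO replicate 1 (16 and 15) and the most without DMSO replicate 2 (133 and 238). Without DMSO replicate 1, 11 of the 27 lower and 8 of the 21 higher calls were shared. The genes whose effect in morulae minus late two-cell embryos was below 0 ranged from 20 to 85, and those above 0 from 312 to 1135. Of the former, DESeq2 gave 198 and the fit of 18 libraries 160. Of the latter, library totals gave 348 and the fit of 18 libraries 1172. Against the ICM that fit gave 1368 genes below 0. The cause of these shifts was not tested.

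Medians of gene lists that moved by more than their spread over library pairs were these. As log2 ratios of mean FPKM with a pseudocount of 1 they were -0.018 (nuclear subunits of oxidative phosphorylation), -0.258 (p53 and its targets), -0.012 (study EPI genes, early), -0.039 (study EPI genes, late), -0.011 (study TE genes, early), -0.077 (called higher in 2iES cells). With a pseudocount of 0.1 they were -0.018 (nuclear subunits of oxidative phosphorylation), -0.116 (ribosome biogenesis), -0.266 (p53 and its targets), -0.364 (primitive endoderm genes), -0.188 (imprinted genes), -0.012 (study EPI genes, early), -0.043 (study EPI genes, late), -0.292 (study ICM genes, late), -0.012 (study TE genes, early), -0.05 (called higher in E4.5 ICM), -0.22 (called lower in 2iES cells), -0.092 (called higher in 2iES cells). With library totals only they were -0.09 (mitochondrial protein import), -0.255 (p53 and its targets), -0.343 (primitive endoderm genes), -0.188 (imprinted genes), 0.009 (study EPI genes, early), -0.005 (study EPI genes, late), -0.271 (study ICM genes, late), -0.002 (study TE genes, early), -0.134 (study TE genes, late), -0.091 (called higher in late two-cell embryos), -0.339 (called lower in E4.5 ICM), -0.051 (called higher in E4.5 ICM), -0.22 (called lower in 2iES cells), -0.08 (called higher in 2iES cells). With upper-quartile scaling they were 0.05 (study TE genes, early). With RLE size factors they were 0.082 (study TE genes, early). With DESeq2 they were 0.082 (study TE genes, early). Over the fits that left out a library the medians ranged from -0.426 to 0.12 (other ETS factors), 0.003 to 0.13 (mitochondrial DNA transcription and replication), 0.011 to 0.136 (mitochondrial ribosomal proteins), -0.279 to -0.128 (mitochondrial translation factors and tRNA synthetases), -0.09 to 0.068 (ribosome biogenesis), 0.099 to 0.435 (proteasome subunits), -0.181 to -0.06 (p53 and its targets), -0.166 to 0.14 (ATF4 and its targets), -0.103 to -0.001 (pluripotency factors), -0.185 to 0.11 (Hippo pathway), 0.034 to 0.18 (trophectoderm transport). They ranged from -0.248 to -0.168 (primitive endoderm genes), 0.662 to 0.985 (two-cell stage genes), 0.081 to 0.233 (oocyte transcripts), -0.158 to -0.034 (imprinted genes), -0.107 to 0.086 (DNA replication), 0.112 to 0.56 (citric acid cycle enzymes), -0.081 to 0.193 (study EPI genes, late), 0.001 to 0.154 (study ICM genes, early), -0.219 to -0.104 (study ICM genes, late), 0.051 to 0.249 (study PrE genes, early), 0.039 to 0.129 (study PrE genes, late), 0.055 to 0.081 (study TE genes, early), -0.086 to 0.005 (study TE genes, late), -0.022 to 0.088 (called higher in late two-cell embryos), -0.023 to 0.104 (called higher in E4.5 ICM), -0.04 to 0.052 (called higher in 2iES cells). Medians that changed sign within their spread ranged from -0.238 to 0.025 (cytosolic ribosomal proteins), -0.155 to 0.196 (trophectoderm transcription factors), -0.007 to 0.194 (nuclear subunits of oxidative phosphorylation), -0.009 to 0.104 (compaction, polarity and junctions), -0.032 to 0.047 (mitochondrial protein import) and -0.035 to 0.06 (glycolytic enzymes).

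The medians of the 239 genes lower at all 3 other stages and of those lower in late two-cell embryos stayed below 0 in every alternative run, at -0.556 to -0.348 and at -0.351 to -0.175. Depth limits these data: 3 counts correspond to 0.243 to 0.305 CPM, and genes with fewer than 10 counts in most libraries could not be tested.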

Other observations

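Several genes lay just outside the threshold and were chosen after their values were seen. Rnf31 and Rbck1 encode subunits of the linear ubiquitin chain assembly complex, and their log2 fold changes were -1.51, adjusted p = 0.0508 and -1.22, adjusted p = 0.0852. Rhox5, an X-linked homeobox gene, had -1.16, adjusted p = 0.0577. The mitochondrial ribosomal protein genes Mrps21 (-1.0, adjusted p = 0.0625) and Mrpl53 (-0.91, adjusted p = 0.0928) and the replicative helicase gene Mcm3 (-1.01, adjusted p = 0.0557) were below 0, and these 3 genes belong to the set called lower at all 3 other stages. In the other direction were Hand1, a trophoblast transcription factor gene (1.61, adjusted p = 0.0741), the mitophagy receptor gene Bnip3 (1.1, adjusted p = 0.0625) and the two-cell stage genes Ubtfl1 (1.24, adjusted p = 0.0533) and Gm5662 (1.49, adjusted p = 0.0537). Kmt2a, a histone H3K4 methyltransferase gene, passed the test (-2.99, adjusted p = 0.0223) but at a mean of 0.263 FPKM was below the level needed for a call.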
